A study of Mus musculus with 8 samples.

Results

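Retinol and retinoic acid metabolism is followed here through 10 enzyme genes, Adh1, Adh4, Rdh7, Rdh9, Rdh11, Rdh16, Rdh16f2, Aldh1a1, Aldh1a7 and Cyp26a1, in mouse liver. They were taken by symbol from the deposited table, where each has 1 row among 22013 genes, and all 10 had enough counts to be tested. Poly(A) RNA of 8 liver libraries had been sequenced, 4 labelled as control and 4 labelled as resmetirom, a drug that preferentially activates thyroid hormone receptor beta. The setting was diet-induced steatohepatitis (MASH, fatty liver disease with inflammation). Mice ate a diet of fructose, palmitate and cholesterol for 12 weeks, and resmetirom at 5 mg/kg per day was injected into the peritoneum for the 8 weeks that followed the first 4 weeks of feeding. Tween-80 and carboxymethyl cellulose-sodium made up the injection vehicle. For the control libraries neither diet nor vehicle is stated, so an effect of the drug cannot be told apart from one of diet or vehicle if those differed, and the labels give no strain, sex or age. Nothing in the labels says that libraries are separate animals, and every p-value below then measures only the spread between these libraries, which may be technical.

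The liver takes up dietary vitamin A, stores it as retinyl esters in stellate cells and releases it as retinol bound to retinol-binding protein. Retinol is oxidised to retinal by alcohol dehydrogenases in the cytosol and by short-chain dehydrogenases in membranes, in a reversible step that other short-chain enzymes run backwards. Retinal dehydrogenases then make retinoic acid, the ligand of the RAR receptors, and enzymes of the CYP26 family clear it by hydroxylation. RAR receptors bind DNA together with RXR receptors, which are also partners of the thyroid hormone receptors.

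Several of these genes are close copies of each other, and this bears on how reads are assigned. Rdh7, Rdh9, Rdh16 and Rdh16f2 lie close together on mouse chromosome 10 (GRCm38, GENCODE M21 annotation), with Rdh19 between Rdh16 and Rdh16f2. Rdh7 is at chr10:127884028-127888817 on the minus strand. On the plus strand Rdh9 is at chr10:127776386-127792697, Rdh16 at chr10:127801152-127846565 and Rdh16f2 at chr10:127866474-127877317. The first 90 coding bases of the 4 genes are shown to let the degree of likeness be seen, with capitals where a base differs from Rdh7.
Rdh7: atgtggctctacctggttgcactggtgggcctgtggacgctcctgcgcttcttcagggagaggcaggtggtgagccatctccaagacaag
Rdh9: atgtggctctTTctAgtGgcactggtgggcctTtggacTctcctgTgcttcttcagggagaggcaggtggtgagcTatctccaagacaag
Rdh16: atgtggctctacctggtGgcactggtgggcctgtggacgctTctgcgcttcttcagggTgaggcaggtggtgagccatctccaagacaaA
Rdh16f2: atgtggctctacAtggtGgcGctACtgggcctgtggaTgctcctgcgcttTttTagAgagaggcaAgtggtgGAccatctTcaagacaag
Over these bases Rdh16 differed from Rdh7 at 4 positions, Rdh9 at 8 and Rdh16f2 at 13. Over the whole coding sequence, Rdh9 and Rdh16 were identical at 96.3% of aligned bases, Rdh16f2 was identical to Rdh9 at 91.7% and to Rdh16 at 91.8%, and Rdh7 was identical to the other members of the quartet at 84.2% to 86.1%. Of all stretches of 50 coding bases, 86.4% of those in Rdh9 also occur in a transcript of another gene, against 44.4% in Rdh16, 23.3% in Rdh7 and 13.4% in Rdh16f2. Most of the shared stretches of Rdh9 are shared with Rdh16f1, an annotated gene that overlaps Rdh9 on the same strand. Counts of Rdh9 and Rdh16 are therefore uncertain as levels of single genes, and those of Rdh16f2 are the least exposed to sharing within the quartet.

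Aldh1a1 (chr19:20492715-20643465, plus strand) and Aldh1a7 (chr19:20692953-20727562, minus strand) form the other near-identical pair, with 91.6% of coding bases identical and 10.4% of the 50-base stretches of each found in the other. Their first 90 coding bases are shown for the same purpose, with capitals where Aldh1a7 differs from Aldh1a1, at 5 positions.
Aldh1a1: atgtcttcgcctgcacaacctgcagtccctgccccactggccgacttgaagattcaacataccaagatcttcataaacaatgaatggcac
Aldh1a7: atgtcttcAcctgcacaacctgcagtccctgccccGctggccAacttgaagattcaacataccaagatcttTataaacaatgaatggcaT
Adh1 (chr3:138260991-138290698, plus strand) and Adh4 (chr3:138415466-138430892, plus strand) belong to 1 gene cluster but were identical at 63.9% of aligned coding bases. No 50-base stretch of Adh4, Rdh11 (chr12:79174337-79192293, minus strand) or Cyp26a1 (chr19:37697798-37701536, plus strand) occurs in another gene. Antisense genes overlap Adh1 and Aldh1a1, and their reads cannot be told apart from those of the enzyme genes without knowledge of strand handling.

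Total counts per library were 16787561 to 19887539. With edgeR's quasi-likelihood test and a Benjamini-Hochberg adjusted p under 0.05, 4.59% of the 12207 genes tested were called, 2.6% higher and 1.99% lower with resmetirom. Levels below are CPM, counts scaled to library size with TMM factors, which sets the bulk of genes equal between libraries. The scaling matters for small differences: over all tested genes, the median log2 fold change was -0.0043 with TMM, -0.31 with library sizes alone and -0.41 on log2(TPM + 1), TPM being the deposited length-corrected level that sums to the same total in every library. In bulk liver, fewer cells of a type and less RNA per cell cannot be told apart. The summed CPM of 9 hepatocyte markers was 78400 to 88700 in the control libraries and 97120 to 105500 in the resmetirom libraries. Most of this sum was Alb, at a mean of 58270 CPM in control and 73190 CPM in resmetirom libraries, which was not called (edgeR adjusted p = 0.081). Log2 fold changes of Serpina1c (-0.61) and Ttr (-0.088) were below 0, and those of the other markers above 0. The part of hepatocyte content in the results below was not tested.

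Of the 10 enzyme genes, Rdh16f2 and Rdh11 were called higher and Adh4 was called lower with resmetirom. The other 7 genes, which include the 3 most abundant, did not pass the test. The median log2 fold change of the 10 was 0.12. Groups did not overlap in CPM for the 3 called genes and overlapped for the other 7, set beside 11.8% of all tested genes whose groups did not overlap. Rdh16f2, Rdh11 and Adh4 kept their call and direction in all 19 alternative analyses.

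**Figure D1:**
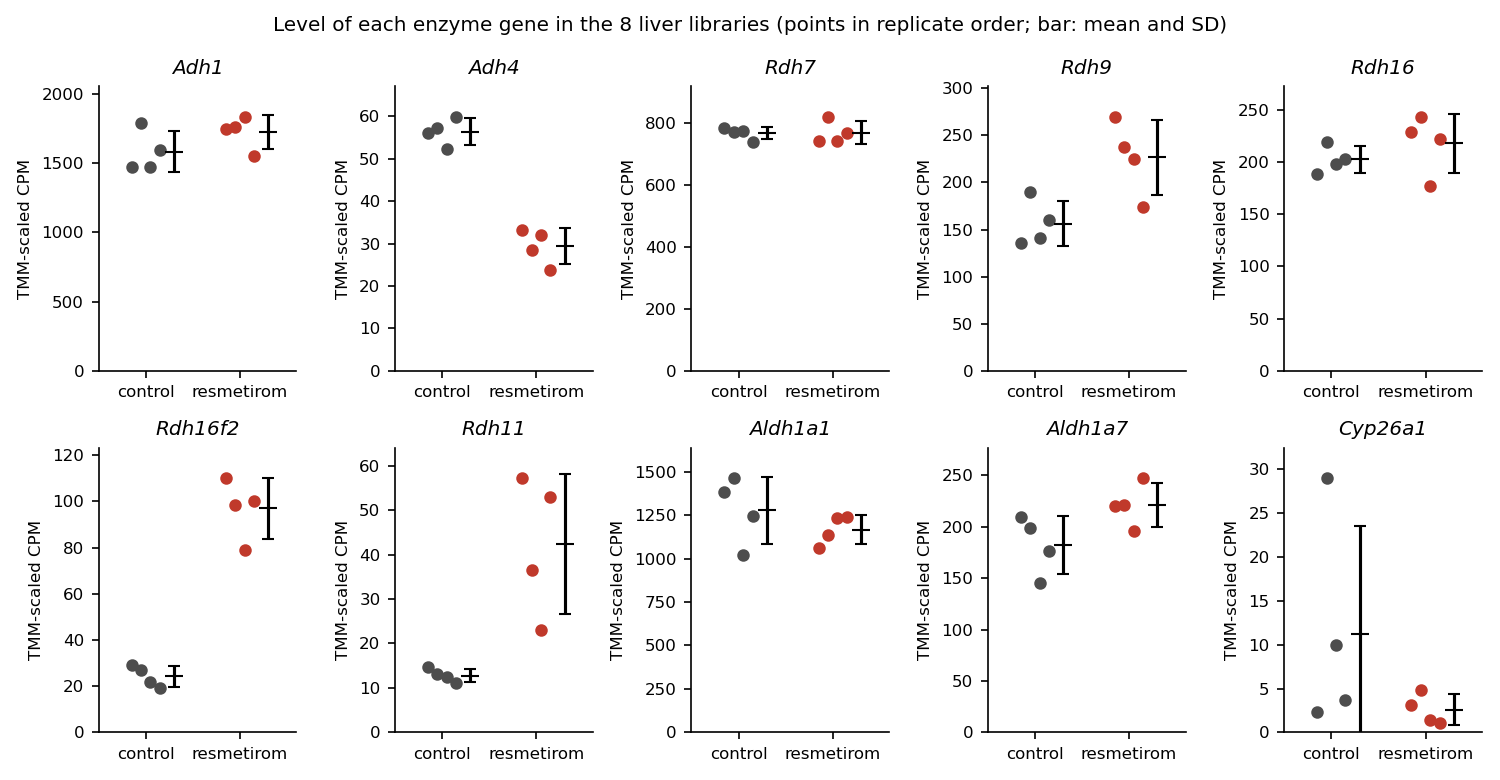
TMM-scaled CPM of the 10 enzyme genes, 1 panel per gene with its own linear axis from 0. Points are the 4 control (grey) and 4 resmetirom (red) libraries, and bars give the mean and SD, which for control Cyp26a1 runs below the axis. Rdh16f2, Rdh11 and Adh4 are the panels in which the groups do not overlap.

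Of the alcohol dehydrogenases, which begin the pathway in the cytosol, Adh4 was called and Adh1 was not. The difference between these genes was not tested. Adh1, the abundant class I enzyme of liver that also oxidises ethanol, was at 1474, 1787, 1472 and 1592 CPM in control replicates 1 to 4 and at 1748, 1763, 1835 and 1547 CPM in resmetirom replicates 1 to 4. The groups overlapped, with means of 1581 ± 148 and 1723 ± 123 (SD, n = 4 each). Its log2 fold change of 0.12 (SE 0.097, 95% interval -0.086 to 0.33, edgeR adjusted p = 0.58) did not pass the test, and its sign turned with library sizes alone (-0.18) and on log2(TPM + 1) (-0.38). Adh4, a class II enzyme that takes longer-chain alcohols and retinol, was at 56.1, 57.2, 52.2 and 59.9 CPM in the control libraries and at 33.3, 28.5, 32.1 and 23.9 CPM in the resmetirom libraries. Every resmetirom library lay below every control library. The mean moved from 56.4 ± 3.22 to 29.4 ± 4.24 CPM (SD, n = 4 each). The log2 fold change was -0.94 (SE 0.11, edgeR adjusted p = 0.000598), or 0.52 times the control level. Across the alternative analyses the value ran from -1.45 to -0.85.

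The short-chain dehydrogenases of the Rdh16 cluster are membrane enzymes that use NAD to oxidise retinols and also act on hydroxysteroids. Within the cluster 1 gene rose, and the others did not pass the test. Rdh16f2 was at 29.0, 27.2, 21.6 and 19.0 CPM in the control libraries and at 110.1, 98.3, 79.0 and 100.2 CPM in the resmetirom libraries. The lowest resmetirom library was well above the highest control library. The mean rose from 24.2 ± 4.67 to 96.9 ± 13.0 CPM (SD, n = 4 each), a 4.00-fold difference (log2 2.0, SE 0.15, edgeR adjusted p = 1.41e-05), and the log2 value stayed between 1.48 and 2.1 in the alternative analyses.

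Rdh7, the most abundant gene of the cluster, was at 783.3, 771.1, 773.4 and 738.2 CPM in the control libraries and at 742.7, 820.6, 742.9 and 768.4 CPM in the resmetirom libraries. The 2 groups lay on top of each other, and the log2 fold change was 0.004 (95% interval -0.16 to 0.17, edgeR adjusted p = 0.99) with TMM, -0.30 with library sizes alone (adjusted p = 0.0695) and -0.50 on log2(TPM + 1), where limma called it lower (adjusted p = 0.0233). Rdh16 was at 188.8, 219.1, 198.0 and 203.1 CPM in the control libraries and at 228.3, 243.3, 177.3 and 221.7 CPM in the resmetirom libraries. Resmetirom replicate 3 was the lowest of the 8 and the other 3 were the highest. Its log2 fold change was 0.11 (95% interval -0.12 to 0.33, edgeR adjusted p = 0.68), with the sign turned under library sizes alone (-0.19) and log2(TPM + 1) (-0.40).

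Rdh9 was at 135.5, 189.3, 141.0 and 159.7 CPM in the control libraries and at 269.9, 237.5, 224.9 and 174.1 CPM in the resmetirom libraries. Resmetirom replicate 4 lay below control replicate 2, and the remaining resmetirom libraries were above all controls. The log2 fold change of 0.54 (SE 0.14, 95% interval 0.23 to 0.84, edgeR adjusted p = 0.055) narrowly missed the threshold. It passed with DESeq2 (adjusted p = 0.0138), with edgeR without the low-count filter (0.0465), without control replicate 2 (0.0281) and without resmetirom replicate 4 (0.0209). It shrank to 0.24 with library sizes alone and to 0.029 on log2(TPM + 1).

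Because reads may be divided among copies in an unknown way, the counts of the cluster (the 4 genes with Rdh1, Rdh16f1 and Rdh19, which were at or near 0) were also summed into 1 row and tested with all other genes. Rdh18-ps, an annotated gene that overlaps Rdh16 on the same strand, was not in the sum. It holds 183 of the 210 shared 50-base stretches of Rdh7, so the sum and the shares below can still depend on reads divided with it. The sum was 1137, 1207, 1134 and 1121 CPM in the control libraries and 1352, 1401, 1224 and 1265 CPM in the resmetirom libraries. The groups did not overlap, but the log2 fold change of 0.19 (SE 0.082, edgeR adjusted p = 0.25) did not pass the test and was -0.11 with library sizes alone. Shares within the cluster do not depend on scaling between libraries. Rdh16f2 held 2.55, 2.25, 1.91 and 1.70% of the cluster's counts in the control libraries and 8.14, 7.02, 6.46 and 7.92% in the resmetirom libraries. The share of Rdh7 was 66.7% ± 2.30 in control and 58.7% ± 2.72 in resmetirom libraries (SD, n = 4 each), again with no overlap, while the shares of Rdh9 (13.6% ± 1.72 and 17.3% ± 2.64) and Rdh16 (17.6% ± 0.723 and 16.6% ± 1.42) overlapped. No test was made on shares.

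**Figure D2:**
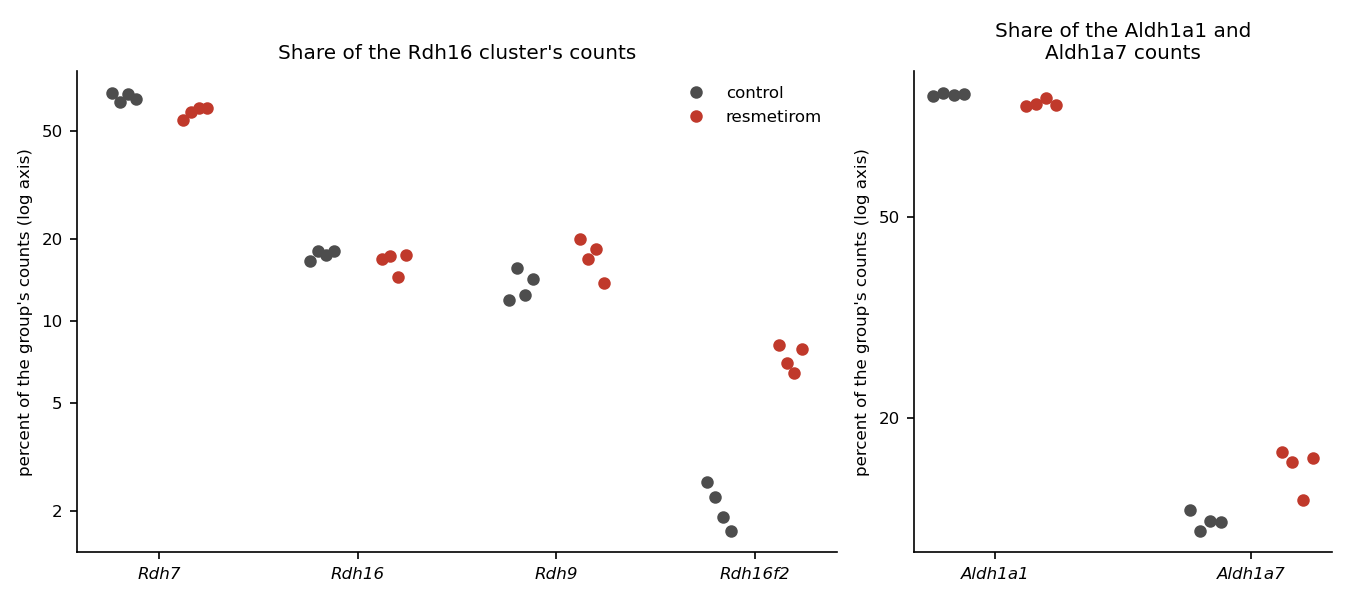
Share of each gene in the summed counts of the Rdh16 cluster (left) and of Aldh1a1 with Aldh1a7 (right), in percent on log axes. Points are the 4 control (grey) and 4 resmetirom (red) libraries. Rdh16f2 went from 2.1% to 7.39% of its cluster on average, and Aldh1a7 from 12.5% to 16.0% of its pair.

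The values of the neighbourhood on chromosome 10 are set side by side here, and differences between its genes were not tested. Hsd17b6, a related dehydrogenase of 3-alpha-hydroxysteroids and retinol, starts 231.2 kb from the start of Rdh9. It was at 212, 167, 537 and 335 CPM in the control libraries and at 58.8, 47.7, 33.4 and 39.6 CPM in the resmetirom libraries. All resmetirom libraries were below all control libraries, which themselves spread widely, and the log2 fold change was -2.80 (SE 0.41, edgeR adjusted p = 0.011). Rdh16f2, called higher, starts 90.1 kb from the start of Rdh9, and Rdh7, with a log2 fold change near 0 under TMM, starts at 112.4 kb, between Rdh16f2 and Hsd17b6.

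**Figure D3:**
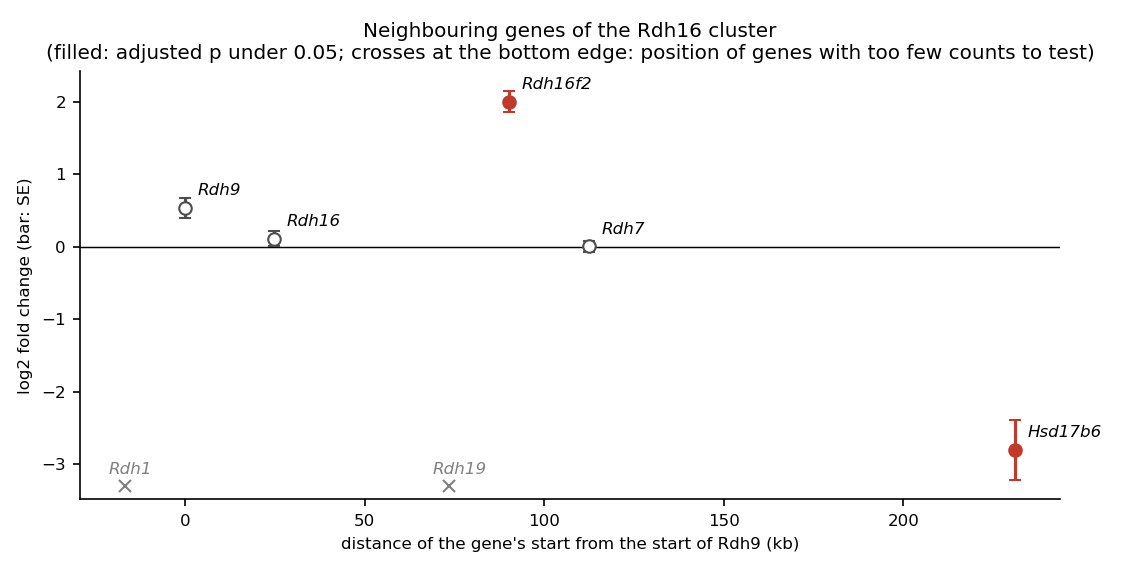
Log2 fold change (resmetirom over control, edgeR with TMM, bars SE) of the tested genes of the Rdh16 cluster and of Hsd17b6 against the distance of each gene's start from that of Rdh9 in kb. Filled points passed the test, and the grey crosses mark only the positions of Rdh1 and Rdh19. Rdh16f2 at 2.0 and Hsd17b6 at -2.80 lie on either side of Rdh7 at 0.004.

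Rdh11 encodes a microsomal short-chain enzyme that uses NADP and favours the reverse step, retinal to retinol. It was at 14.6, 13.1, 12.4 and 11.03 CPM in the control libraries and at 57.2, 36.4, 23.1 and 52.9 CPM in the resmetirom libraries. The control libraries were close to each other, and the resmetirom libraries were all higher but spread more than 2-fold, with replicate 3 the lowest. The mean rose from 12.8 ± 1.49 to 42.4 ± 15.7 CPM (SD, n = 4 each), a 3.32-fold difference (log2 1.73, SE 0.26, 95% interval 1.15 to 2.31, edgeR adjusted p = 0.00475). In TPM, resmetirom replicate 3 at 7.87 fell inside the control range of 7.06 to 8.67, and the log2 fold change on log2(TPM + 1) was 1.01, with limma's adjusted p = 0.0228.

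Retinal oxidation to retinoic acid is the step of Aldh1a1, a cytosolic retinal dehydrogenase. Aldh1a1 was at 1381, 1463, 1019 and 1244 CPM in the control libraries and at 1062, 1133, 1231 and 1236 CPM in the resmetirom libraries. All resmetirom libraries lay inside the control range. The log2 fold change of -0.13 (95% interval -0.38 to 0.12, edgeR adjusted p = 0.64) did not pass the test with TMM, whereas Aldh1a1 was called lower with library sizes alone (-0.44, adjusted p = 0.0247) and by limma on log2(TPM + 1) (-0.63, adjusted p = 0.0123).

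Aldh1a7, the neighbouring copy of Aldh1a1, was at 209.2, 198.7, 145.7 and 176.6 CPM in the control libraries and at 219.9, 221.4, 195.8 and 247.5 CPM in the resmetirom libraries. Resmetirom replicate 3 lay within the control range and the other 3 lay above it. The log2 fold change of 0.28 (95% interval 0.020 to 0.53, edgeR adjusted p = 0.24) did not pass the test and turned to -0.023 with library sizes alone and -0.22 on log2(TPM + 1). Within the pair, Aldh1a7 held 13.2, 12.0, 12.5 and 12.4% of the counts in the control libraries and 17.2, 16.3, 13.7 and 16.7% in the resmetirom libraries, without overlap. The sum of the pair was 1459 ± 221 CPM in control and 1387 ± 87.4 CPM in resmetirom libraries (SD, n = 4 each), with a log2 fold change of -0.073 (95% interval -0.32 to 0.18, edgeR adjusted p = 0.81) that grew to -0.38 with library sizes alone (adjusted p = 0.0446).

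Retinoic acid is cleared by Cyp26a1, which is itself a classical target of retinoic acid receptors. The 250 bases upstream of its RefSeq start (GRCm38.p6, chr19:37697558-37697807, plus strand) are shown because they hold a motif of the type those receptors bind, given in capitals.
Cyp26a1: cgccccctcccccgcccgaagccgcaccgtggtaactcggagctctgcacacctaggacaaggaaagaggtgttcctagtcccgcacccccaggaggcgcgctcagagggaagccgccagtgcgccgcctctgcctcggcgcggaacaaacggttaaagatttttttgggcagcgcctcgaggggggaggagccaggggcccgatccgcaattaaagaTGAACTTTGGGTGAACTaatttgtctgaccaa
On the opposite strand the capitals read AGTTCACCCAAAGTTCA, a direct repeat of AGTTCA with 5 bases between the copies, 32 to 16 bases before the start. Direct repeats of AGGTCA or AGTTCA in any combination were searched on both strands from 250 bases before to 50 bases after each start, in 13 windows that cover all 10 genes. With a spacing of 5, 13 of 32851 windows of all genes (0.0396%) held a match, the Cyp26a1 window among them. With a spacing of 4, 0.0274% of all windows held a match, and with a spacing of 2, 0.0396%, and in neither case did a window of the 10 genes. A match describes letters in the reference sequence and is not evidence of binding.

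Cyp26a1 was at 2.28, 29.0, 9.95 and 3.66 CPM in the control libraries (49, 599, 219 and 74 counts) and at 3.10, 4.81, 1.47 and 1.02 CPM in the resmetirom libraries (55, 74, 22 and 15 counts). Control replicate 2 stood far above the rest, and control replicates 1 and 4 lay among the resmetirom libraries. The log2 fold change of -2.1 (SE 0.93, 95% interval -4.30 to 0.096, edgeR adjusted p = 0.31) did not pass the test. It was -1.02 (adjusted p = 0.50) without control replicate 2, and between -2.57 and -1.02 when each library was left out in turn. On log2(TPM + 1) limma called it lower (-1.67, adjusted p = 0.0339).

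The spread of Cyp26a1 among the control libraries had a parallel in 2 other retinoid genes that were singled out after their values were seen. Cyp26b1, a second retinoic acid hydroxylase, was at 7.40, 46.3, 20.04 and 13.9 CPM in the control libraries and at 19.0, 21.1, 3.33 and 3.59 CPM in the resmetirom libraries. Lrat, which esterifies retinol for storage, was at 9.82, 32.9, 23.6 and 15.9 CPM in the control libraries and at 19.7, 17.5, 13.2 and 11.8 CPM in the resmetirom libraries. In all 3 genes the control libraries fell in the order replicate 2, 3, 4 and 1, and resmetirom replicates 1 and 2 were above replicates 3 and 4. Neither Cyp26b1 (log2 fold change -0.89, SE 0.84, edgeR adjusted p = 0.68) nor Lrat (-0.40, SE 0.35, edgeR adjusted p = 0.65) passed the test between the groups. Lrat is also a stellate cell marker, and the summed CPM of 12 such markers was 569 to 779 in control and 537 to 859 in resmetirom libraries. Of these 12, Lrat alone had that order of control libraries. Dcn, for example, was at 263, 284, 424 and 401 CPM in control replicates 1 to 4. The part of stellate cells in this spread was not tested.

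Levels of different genes can be compared only per length, and TPM gives that. In the control libraries the order by mean TPM was Adh1 (1976 ± 192), Aldh1a1 (1157 ± 146), Rdh7 (851 ± 25.4), Aldh1a7 (164 ± 20.2), Rdh16 (119 ± 9.76), Rdh9 (110 ± 17.1), Adh4 (80.7 ± 7.14), Rdh16f2 (35.4 ± 5.21), Cyp26a1 (11.5 ± 12.4) and Rdh11 (7.74 ± 0.726, SD, n = 4 each). Rdh16 and Rdh9 did not differ beyond their spread there, and neither did Cyp26a1 and Rdh11. In the resmetirom libraries the first 4 kept their places, at 1532 ± 294 TPM for Adh1, 748 ± 89.7 for Aldh1a1, 607 ± 103 for Rdh7 and 142.5 ± 30.7 for Aldh1a7. Rdh9 (115.8 ± 38.6 TPM), Rdh16f2 (103.3 ± 31.5) and Rdh16 (92.4 ± 24.6) followed with overlapping values, so that Rdh16f2, which was below Rdh16, Rdh9 and Adh4 in every control library, lay among its neighbours Rdh9 and Rdh16 with resmetirom. Adh4 (30.1 ± 8.43 TPM), Rdh11 (18.3 ± 9.24) and Cyp26a1 (1.97 ± 1.35) came last.

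The 3 called genes are minor transcripts of the set. As a share of the summed TPM of the 10 genes, Rdh16f2 was 0.789% ± 0.132 in control and 3.0% ± 0.44 in resmetirom libraries (SD, n = 4 each). Rdh11 was 0.172% ± 0.015 and 0.523% ± 0.203, and Adh4 was 1.79% ± 0.135 and 0.880% ± 0.113. Adh1, Aldh1a1 and Rdh7 together carried most of the sum in both groups, with mean shares of 43.7%, 25.6% and 18.9% in control and 45.1%, 22.2% and 17.9% in resmetirom libraries.

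**Figure D4:**
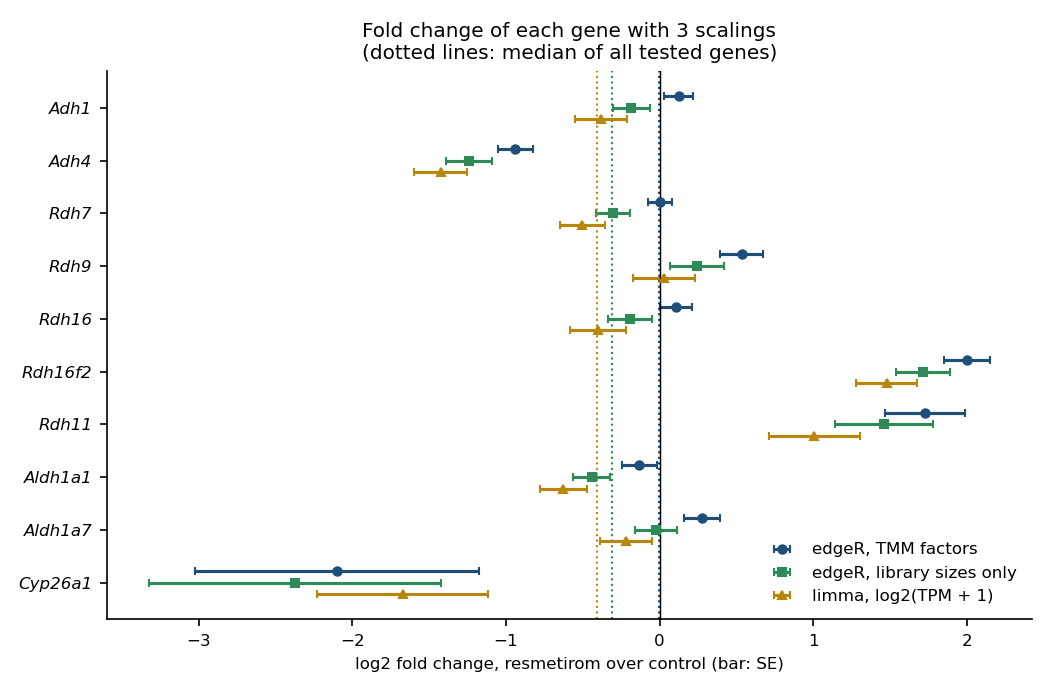
Log2 fold change (resmetirom over control, bars SE) of each enzyme gene from edgeR with TMM factors, edgeR with library sizes alone and limma on log2(TPM + 1). Dotted lines give the median of all tested genes under each scaling, at -0.0043, -0.31 and -0.41. Adh4, Rdh16f2 and Rdh11 stay on their side of 0 under each, as do Rdh9, Aldh1a1 and Cyp26a1, which were not called with TMM. Adh1, Rdh7, Rdh16 and Aldh1a7 change sign.

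The authors' deposited table gives fold changes of mean TPM with an adjusted p. In the authors' deposited table Rdh16f2 is at log2 1.54 (adjusted p = 8.48e-15), Rdh11 at 1.24 (1.96e-05) and Adh4 at -1.42 (2.78e-15), the same directions as above. The authors' deposited table also lists Rdh7 (-0.49, adjusted p = 0.000524), Aldh1a1 (-0.63, 8.26e-05), Adh1 (-0.37, 0.0461) and Cyp26a1 (-2.55, 0.0205) as lower at an adjusted p under 0.05, where edgeR with TMM did not. In the authors' deposited table Rdh9 (0.070, adjusted p = 0.64), Rdh16 (-0.37, 0.0728) and Aldh1a7 (-0.20, 0.47) stay over that threshold.

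The rest of the retinoid pathway was read from lists of genes by role, with edgeR and TMM unless stated. Of 11 tested among 17 other retinol and retinal oxidoreductases, 2 were called, both lower, with a median log2 fold change of 0.096. Beside Hsd17b6 above, Hsd17b13, a lipid droplet protein reported to act on retinol, went from 527 ± 57.8 to 366 ± 57.9 CPM (SD, n = 4 each; log2 -0.53, SE 0.12, edgeR adjusted p = 0.0297). That call of Hsd17b13 was lost without control replicate 3 (adjusted p = 0.0898), control replicate 4 (0.0966), resmetirom replicate 1 (0.073) or resmetirom replicate 3 (0.066). Rdh10, the main retinol dehydrogenase of embryonic tissues, and Dhrs3, a retinal reductase, had log2 fold changes of -0.024 and 0.12 and did not pass.

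None of 4 tested among 5 other retinal-oxidising enzymes was called in either direction by edgeR with TMM or by DESeq2 (median -0.18). At an unadjusted p under 0.05 there was 1, Aox1, an aldehyde oxidase, with a log2 fold change of -0.37 (SE 0.16, edgeR adjusted p = 0.25). Library sizes alone called 1 of the 4 lower and log2(TPM + 1) called 2 lower, beside 1961 and 4635 of all 12207 genes. Among the other retinoic acid hydroxylases, 2 of 3 were tested and Cyp2c39 was called higher, from 4.02 ± 0.166 to 10.6 ± 2.26 CPM (SD, n = 4 each; log2 1.41, SE 0.18, edgeR adjusted p = 0.000835). Cyp2c39 belongs to a large family of similar genes, so its counts are uncertain where reads are shared. It kept its call in all 19 alternative analyses.

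Of 11 tested among 16 genes of retinoid uptake, binding and storage, 2 were called, both higher, with a median log2 fold change of 0.19. Rbp4, the plasma carrier of retinol, rose from 2403 ± 131 to 3865 ± 287 CPM (SD, n = 4 each; log2 0.69, SE 0.092, edgeR adjusted p = 0.00102), but did not pass with library sizes alone (0.38, adjusted p = 0.0568) or on log2(TPM + 1) (0.18, adjusted p = 0.44). Bco1, which cleaves beta-carotene to retinal, rose from 4.89 ± 1.08 to 11.2 ± 1.71 CPM (log2 1.19, SE 0.195, edgeR adjusted p = 0.0037) and kept its call in all 19 alternative analyses. With library sizes alone the list had 1 gene called higher and 4 lower, and the same numbers on log2(TPM + 1). Of all 12207 genes, library sizes alone called 151 higher and 1961 lower, and log2(TPM + 1) called 127 higher and 4635 lower.

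Of 7 tested among 8 genes of retinyl ester hydrolysis, 1 was called, and it was lower (median 0.046). DESeq2, which called 387 of 16019 genes lower, called 2 of the 7 lower. Library sizes alone and log2(TPM + 1) each called 3 of the 7 lower. Lpl, the lipoprotein lipase that also releases retinol from chylomicron esters, fell from 205 ± 66.0 to 58.2 ± 14.2 CPM (SD, n = 4 each; log2 -1.81, SE 0.26, edgeR adjusted p = 0.00474), in all 19 alternative analyses too. Among 6 retinoid receptors, all tested, Rxra was called higher, from 275 ± 18.6 to 347 ± 16.9 CPM (log2 0.34, SE 0.083, edgeR adjusted p = 0.0384; list median -0.045). The Rxra call was lost when any 1 of the 8 libraries was left out (adjusted p 0.052 to 0.112), and on log2(TPM + 1) its log2 fold change was -0.14. Of 6 tested among 8 genes known to respond to retinoic acid, 1 was called, and it was lower (median -0.15). That gene was Tgm2, tissue transglutaminase, at 156 ± 12.9 and 116 ± 17.0 CPM (log2 -0.435, SE 0.11, edgeR adjusted p = 0.0494), and its call was lost without any 1 of the 4 control libraries, or without resmetirom replicate 2 or 4 (adjusted p 0.0602 to 0.137).

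**Figure D5:**
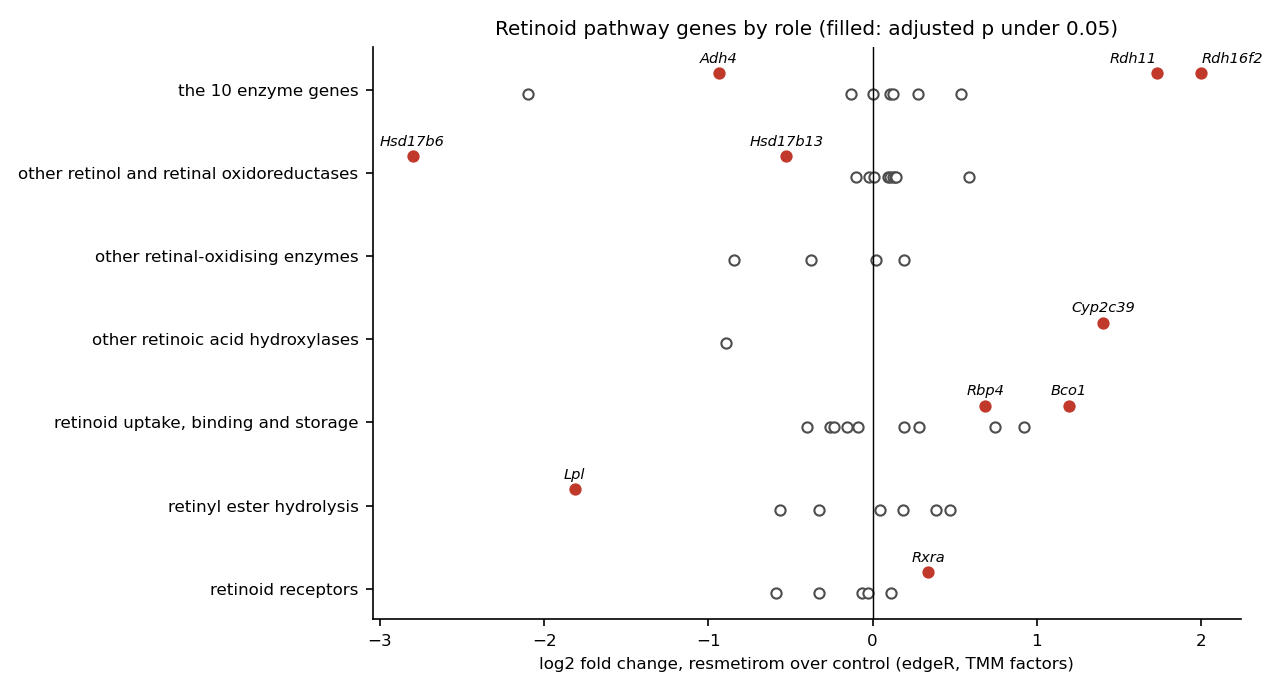
Log2 fold change (resmetirom over control, edgeR with TMM) of the 10 enzyme genes and of the tested genes of 6 lists of the retinoid pathway, 1 point per gene, grouped by role. Filled red points passed the test and are named. The called genes run from Hsd17b6 at -2.80 to Rdh16f2 at 2.0, and open points did not pass the test.

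Genes with the most similar profiles were sought for the called enzyme gene with the smallest p in each direction, as Pearson's r of log2 CPM over the 8 libraries, a description in which the difference between the groups and the shared libraries both enter. Closest to Rdh16f2 were Fads1, a fatty acid desaturase (r = 0.994, log2 fold change 1.45), Ugt1a5, a glucuronosyltransferase that shares exons with its family and is therefore uncertain (0.994, 3.47), and Ang, a secreted ribonuclease (0.993, 1.59). Closest to Adh4 were C6, a terminal complement component (r = 0.987, log2 fold change -1.76), Adam11, a cell-surface protein of the ADAM family (0.980, -3.36), and Osbpl3, an oxysterol-binding-like protein (0.975, -3.06). All 6 passed the edgeR test, which follows from their selection by likeness to a called gene and adds nothing to it.

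Other cells of the liver were read from marker lists. None of 10 macrophage, 8 endothelial, 5 tested cholangiocyte or 5 tested lymphocyte markers was called by edgeR with TMM. At an unadjusted p under 0.05 there were 0, 2, 1 and 2 of them, and DESeq2 called 1, a lymphocyte marker. All 8 endothelial markers had log2 fold changes below 0 (median -0.28). The median was -0.11 for macrophage markers, 0.67 for the tested cholangiocyte markers and 0.67 for the tested lymphocyte markers. Of the tested cholangiocyte markers, Sox9 was at -1.38, and Krt19 (1.10), Krt7 (0.98), Epcam (0.67) and Spp1 (0.43) were above 0. Library sizes alone called 2 endothelial markers and 1 cholangiocyte marker lower, and log2(TPM + 1) called 3 macrophage and 7 endothelial markers lower. Over all 12207 genes these scalings called 1961 and 4635 lower. Of 9 hepatocyte markers Cps1 (0.76) and Tat (1.63) were called higher and none lower, with Serpina1c at -0.61 (edgeR adjusted p = 0.0536). DESeq2 called 4 of them higher and 1 lower. Library sizes alone gave 1 higher and 2 lower, and log2(TPM + 1) gave 1 higher and 3 lower. Col3a1 was the 1 stellate cell marker of 12 called (log2 -1.06, edgeR adjusted p = 0.0474). Fabp4, on the adipocyte list, was called lower (-0.996, edgeR adjusted p = 0.00413), while the defining adipocyte genes Adipoq and Lep were at 0. Markers of the zones of the liver lobule were read too. Of 10 pericentral genes, Lgr5 (1.15) and Gulo (0.79) were called higher and Cyp1a2 (-1.94) lower, and of 10 periportal genes Hsd17b13 alone was called. Summed pericentral markers were at 8185 to 9837 CPM in control and 6665 to 9278 CPM in resmetirom libraries, and summed periportal markers at 9112 to 10980 and 8554 to 12220 CPM. Their part in the results of the enzyme genes was not tested.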

How the data were processed

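Poly(A) RNA of 8 liver libraries, 4 per group, was grouped by sample title. Per the file headers, the authors deposited 1 table with whole-number counts and TPM per gene and library, a log2 fold change, which equals the log2 ratio of group means of TPM, and p-values with an adjusted form. Build mm10, the aligners HISAT2 2.1.0 and Bowtie2 2.2.8, and edgeR, DESeq2, RSEM, StringTie 1.3.1 and fastp 0.18.0 appear without role or order in the submitters' processing notes. Strand handling, the treatment of reads shared between copies and the tool behind the deposited p-values are not given in the sources used here. Such handling can move counts between copies. Every per-sample column matched a sample, and 0 were left over.

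The test was that of edgeR 4.0.16, run in R 4.3.3 on the counts (filterByExpr, TMM, robust quasi-likelihood fit, Benjamini-Hochberg over 12207 genes, threshold 0.05), after the code had been tested on simulated data. CPM are scaled by TMM. Alternatives were DESeq2 1.42.0, other factors and filters, limma 3.58.1 (voom, and on log2(TPM + 1) or log2(TPM + 0.1), which understates changes of low genes), each library left out and a replicate block. Sequences came from GENCODE M21 and, for promoters, RefSeq.

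The 10 genes and all lists were chosen with earlier results of these data known. Named were all 10 genes, each called gene of a pathway list or else its smallest p, and the 3 most similar profiles for 1 called gene per direction. Other named genes, namely the marker genes, Rdh10, Dhrs3, Cyp26b1 and Lrat, were chosen after their values were seen. No explanation was tested.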

Additional observations from a re-analysis of the deposited data

How the results depend on the processing

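Rdh16f2, Rdh11 and Adh4 kept direction and call in all 19 alternatives. The number of the 10 genes called lower was 1, and became 2 with library sizes alone (with Aldh1a1) and 4 on log2(TPM + 1) and on log2(TPM + 0.1). Over all genes, 317 were called higher and 243 lower, against 523 and 387 with DESeq2, 151 and 1961 with library sizes alone, 127 and 4635 on log2(TPM + 1) and 128 and 4593 on log2(TPM + 0.1). Leaving out each library gave 182 to 313 higher, and 149 to 238 lower. The fewest came without control replicate 4 (182 and 149), then without resmetirom replicate 4 (208 and 161).

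Signs turned under library sizes alone, log2(TPM + 0.1) and log2(TPM + 1), in that order, for Rdh7 (-0.304, -0.503 and -0.502), Rdh16 (-0.192, -0.403 and -0.399), Adh1 (-0.183, -0.380 and -0.380) and Aldh1a7 (-0.0226, -0.220 and -0.219). The sum of the Rdh16 cluster turned to -0.114 with library sizes alone, and Rxra to -0.140 on log2(TPM + 0.1) and -0.139 on log2(TPM + 1). These scalings also lower the median of all genes. Rdh7, near 0, was -0.00448 without the low-count filter and -0.0295 to 0.0202 when each library was left out. On log2(TPM + 0.1), Aldh1a1 (-0.628, adjusted p = 0.0123) and Cyp26a1 (-2.12, adjusted p = 0.0301) were called lower by limma.

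The labels do not say whether replicate numbers pair the libraries. Deviations of same-numbered libraries correlated at -0.325, 0.184, -0.186 and -0.0612, which shows no common pattern but cannot settle the question. With the replicate block, edgeR called 240 genes higher and 166 lower, and 2 and 1 of the 10 genes. Rdh9 was then at 0.53 (adjusted p = 0.116). Hsd17b6 (-2.67, adjusted p = 0.0999), Hsd17b13 (-0.53, 0.084), Rxra (0.339, 0.12) and Tgm2 (-0.44, 0.0948) missed the threshold. Tgm2 also missed it with limma-voom (0.0531), upper-quartile factors (0.0506) and without robust estimation (0.0635).

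With 4 libraries per group, the interval for Cyp26a1 spans -4.30 to 0.096, so its change cannot be placed at this size and spread, and its lowest library holds 15 counts.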
